A study of Mus musculus with 18 samples.

Results

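The genes described here are 8 genes of heart muscle, Nppa, Myl7, Sln, Myh6, Tnnt2, Actc1, Myl4 and Tnni3, measured as messenger RNA in mouse lung. They were chosen by gene name, and all 8 were among the 13384 genes of the expression table. Each of the 8 also reached 1 FPKM (sequenced fragments scaled to transcript length and library size) in at least 3 libraries, the condition for being tested, as did 11765 genes in all. There were 3 groups of 3 lung libraries. The BMSC-treated group had the smoke model described next and then received 4000000 BMSCs, named in the labels by that abbreviation, through the tail vein with 100 µl saline. The COPD model group, a model of chronic obstructive pulmonary disease, was exposed to smoke of cigarettes, had an extract of it injected into the peritoneum, and got saline without cells. The control group received saline only. The labels used here give no strain, age or sex of the mice and no donor of the BMSCs. Nor do they name a separate animal for every library, so a p-value reflects library-to-library spread, which may be technical.

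In the mouse, a sleeve of striated cardiac muscle runs from the left atrium along the pulmonary veins into the lung, inside the outer wall of the vein. These cells are of atrial type: they build the sarcomere with the atrial light chains Myl7 and Myl4 and the fast alpha myosin heavy chain Myh6, regulate it through the cardiac troponins, restrain calcium uptake with sarcolipin (Sln) and can secrete atrial natriuretic peptide (Nppa). A piece of lung may carry more or less of this sleeve, or of the attached atrium, and whole-lung RNA cannot tell these sources apart.

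Mitochondrially encoded transcripts, together with Scgb1a1 (the main secretory product of club cells), took large and unequal shares of the FPKM, to which every other gene is relative. Mitochondrial genes held 55.6% to 92.2% of the FPKM in BMSC-treated libraries, 23.9% to 30.04% in COPD model libraries and 46.9% to 89.2% in control libraries. Scgb1a1 held 1.32% to 6.27%, 33.0% to 39.2% and 1.02% to 19.0% in the same groups. BMSC-treated 1 and control 1 had the highest mitochondrial shares, 92.2% and 89.2%, and the most genes with a value of 0, which were 1193 and 1038, while each of the other 7 libraries had 107 to 201. The 8 genes together held 0.00474% to 0.0703% of the FPKM in BMSC-treated libraries, 0.0312% to 0.0419% in COPD model libraries and 0.00362% to 0.0968% in control libraries. Since FPKM is relative to the library, and since these are whole lung pieces, fewer muscle cells and less RNA per cell cannot be told apart.

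None of the 8 genes passed the test in any of the 3 comparisons, and in each of these comparisons the groups overlapped for every one of them. Control 2 had the highest FPKM of all 9 libraries for Myl7, Myh6, Myl4, Tnnt2 and Tnni3, that is for 5 of the 8 genes, while it was the highest library for 1.66% of all genes tested. BMSC-treated 3 was the highest for Sln and Nppa, and COPD model 1 for Actc1.

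**Figure D1:**
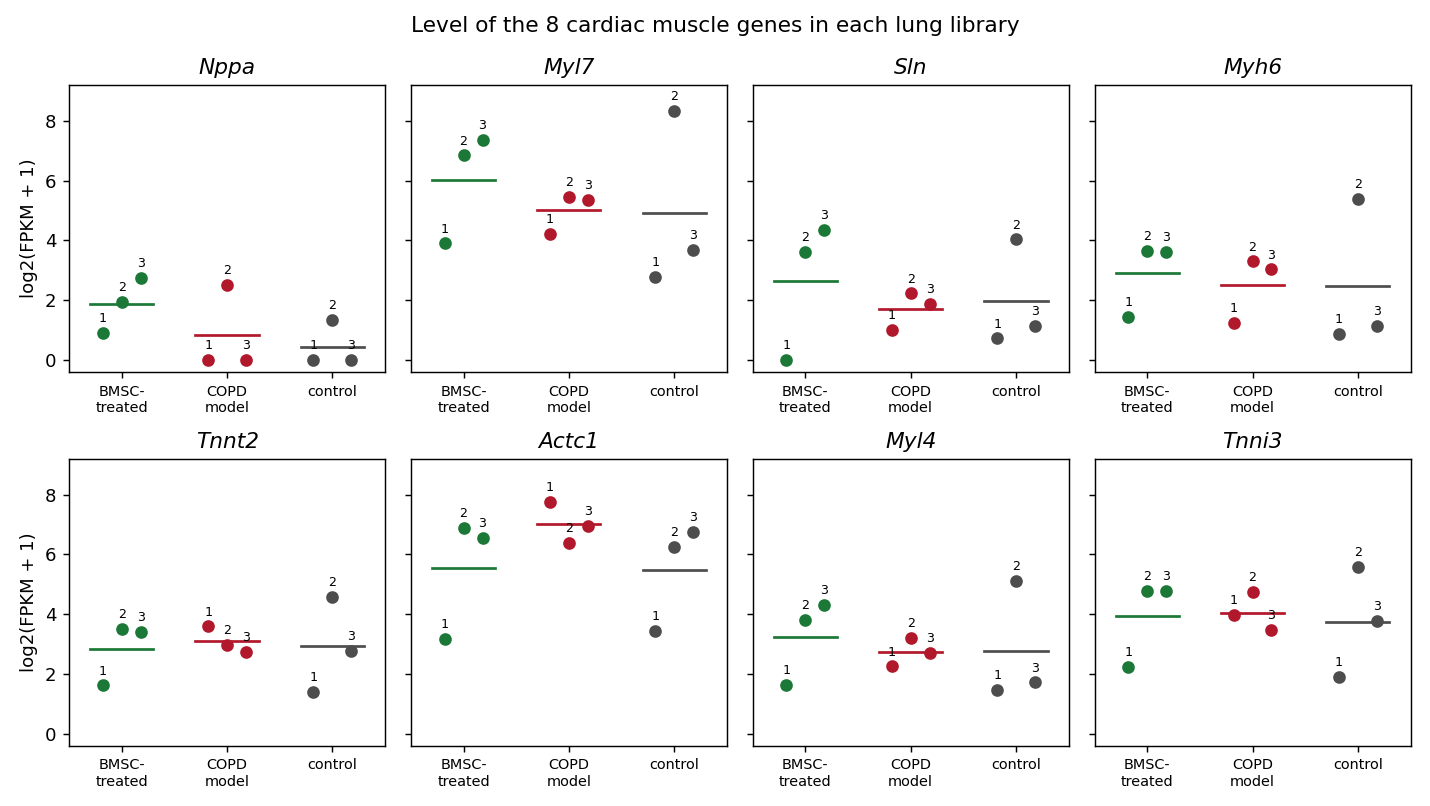
Level of each of the 8 genes in the 9 lung libraries. The vertical axis is log2(FPKM + 1), each point is a library marked with its replicate number, horizontal bars are group means, and BMSC-treated, COPD model and control libraries run from left to right. Control 2 stands above every other library for Myl7, Myh6, Myl4, Tnnt2 and Tnni3, and the groups overlap in all 8 panels.

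Myl7, the atrial regulatory light chain of myosin (chromosome 11, 5896637 to 5898782, GRCm38.p6, which is mm10), was the second most abundant of the 8 genes, with a mean of 81.3 FPKM over all libraries. It stood at 13.9, 114 and 163.6 FPKM in BMSC-treated libraries 1, 2 and 3, at 17.6, 43.1 and 39.8 FPKM in COPD model libraries and at 5.81, 322.5 and 11.9 FPKM in control libraries. Control 2 was 8.10 times the median library, and the remaining control libraries were the lowest of all 9. The group means were 97.1 ± 76.2 FPKM after BMSCs, 33.5 ± 13.9 FPKM in the COPD model and 113 ± 181 FPKM in control (SD, n = 3 each), so that the spread within control exceeded its mean. Myl4, the atrial essential light chain (chromosome 11, 104546017 to 104587215), had 2.11, 12.9 and 19.0 FPKM in BMSC-treated, 3.76, 8.23 and 5.51 FPKM in COPD model and 1.76, 33.7 and 2.29 FPKM in control libraries. Its libraries took almost the same order as those of Myl7, with control 2, BMSC-treated 3 and BMSC-treated 2 at the top.

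Myh6, the alpha heavy chain of cardiac myosin (chromosome 14, 54941921 to 54968017), had 1.71, 11.5 and 11.2 FPKM in BMSC-treated libraries, 1.35, 8.83 and 7.17 FPKM in COPD model libraries and 0.832, 40.8 and 1.20 FPKM in control libraries. Control 2 again stood alone, at 5.69 times the median library. Myh7, the slow beta heavy chain and near-identical neighbour of Myh6, ranged over the 9 libraries from 0.190 to 2.39 FPKM, with its highest value in control 2. The division of reads between these 2 paralogs is uncertain. The 250 bases before the start given in RefSeq's promoter table of Myl7 and of Myh6, which kept the closest ratio of the myosin genes, and of Actc1, which departed from them, are shown on GRCm38.p6. All 3 genes lie on the minus strand and read 5′ to 3′ on the gene's strand, and capitals mark matches to an M-CAT element (CATTCC) or a CArG box.
Myl7 (chr11:5898783-5899032): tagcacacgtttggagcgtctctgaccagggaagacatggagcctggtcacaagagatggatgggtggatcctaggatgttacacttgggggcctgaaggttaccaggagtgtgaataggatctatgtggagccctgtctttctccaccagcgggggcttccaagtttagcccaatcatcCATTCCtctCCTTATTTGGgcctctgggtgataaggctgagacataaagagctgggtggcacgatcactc
Myh6 (chr14:54966608-54966857): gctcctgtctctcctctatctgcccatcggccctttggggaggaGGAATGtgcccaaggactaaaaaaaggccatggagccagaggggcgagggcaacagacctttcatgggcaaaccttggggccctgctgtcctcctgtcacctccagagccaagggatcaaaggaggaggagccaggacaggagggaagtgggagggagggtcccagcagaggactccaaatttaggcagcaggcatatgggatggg
Actc1 (chr2:114052876-114053125): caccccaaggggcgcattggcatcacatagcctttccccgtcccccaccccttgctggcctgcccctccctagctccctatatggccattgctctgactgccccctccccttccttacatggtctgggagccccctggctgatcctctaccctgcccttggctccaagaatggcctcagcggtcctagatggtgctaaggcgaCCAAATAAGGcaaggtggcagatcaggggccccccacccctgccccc
A set of 6 motifs named for muscle or for core promoters were searched on both strands of this window in the 7 genes with a promoter entry. A CArG box, the element bound by serum response factor in cardiac and smooth muscle genes, was found in 2 of the 7, Myl7 and Actc1, and in 1.47% of all 32851 windows of the same length. It reads the same class of letters on both strands, so each box matched on both. CATTCC was found in 3 of the 7, Myl7, Myh6 and Tnnt2, and in 12.6% of all windows, without overlap with the CArG box of Myl7. TATAAA was found in Nppa alone (12.4% of all windows), AGATAA in Tnnt2 alone (9.99%), and GGTGTG in Nppa and Tnni3 (16.3%). The MEF2 element was found in 0 of the 7 and in 2.92% of all windows. The 7 were counted by gene, with a match in any window of the gene, while the percentages count windows. Tnnt2 had another window, in which no motif was found. These matches describe letters and not binding.

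The cardiac troponins followed the myosin genes less steeply. Tnni3, cardiac troponin I (chromosome 7, 4518305 to 4522718), which holds back contraction at low calcium, had 3.74, 26.5 and 26.3 FPKM in BMSC-treated, 14.6, 25.6 and 10.0 FPKM in COPD model and 2.74, 47.2 and 12.6 FPKM in control libraries. Control 2 was 3.22 times the median library. Tnnt2, cardiac troponin T (chromosome 1, 135836315 to 135852268), which anchors the troponin complex to tropomyosin, had 2.08, 10.5 and 9.53 FPKM in BMSC-treated libraries, 11.04, 6.88 and 5.65 FPKM in COPD model libraries and 1.66, 22.8 and 5.86 FPKM in control libraries. Control 1 and BMSC-treated 1 were the lowest 2 libraries for both troponins. Group means in BMSC-treated, COPD model and control libraries were 18.8 ± 13.1, 16.8 ± 8.001 and 20.9 ± 23.3 FPKM for Tnni3 (SD, n = 3 each). For Tnnt2 they were 7.36 ± 4.60, 7.86 ± 2.82 and 10.1 ± 11.2 FPKM (SD, n = 3 each). For both genes the SD exceeded the mean in control only.

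Actc1, cardiac alpha actin (chromosome 2, 114047282 to 114052875), was the most abundant of the 8, with a mean of 92.2 FPKM over all libraries, and took another order. It had 7.98, 117 and 92.1 FPKM in BMSC-treated, 216, 82.7 and 122 FPKM in COPD model and 9.85, 75.5 and 106 FPKM in control libraries. COPD model 1 was the highest library and control 2 the seventh, below control 3. The group means were 72.4 ± 57.2 FPKM after BMSCs, 140.2 ± 68.7 FPKM in the COPD model and 63.9 ± 49.3 FPKM in control (SD, n = 3 each). Actins are near-identical in coding sequence, and the labels do not say how reads were divided among Actc1, the smooth muscle actins and other actins.

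Sln and Nppa, which act outside the sarcomere, had the lowest levels. Sln, the sarcolipin that slows the calcium pump of the sarcoplasmic reticulum in atrial muscle (chromosome 9, 53850251 to 53853849), was listed at 0, 11.3 and 19.5 FPKM in BMSC-treated, 1.013, 3.68 and 2.67 FPKM in COPD model and 0.654, 15.4 and 1.20 FPKM in control libraries. BMSC-treated 2, BMSC-treated 3 and control 2 stood clear of the other 6. Nppa, the precursor of atrial natriuretic peptide (chromosome 4, 148000722 to 148002074), was listed at 0.874, 2.81 and 5.74 FPKM in BMSC-treated, 0, 4.70 and 0 FPKM in COPD model and 0, 1.52 and 0 FPKM in control libraries. It was listed at 0 in 4 of the 9 libraries and above 0 in all BMSC-treated ones. A value listed at 0 in this table may also be a failed estimate, and no mean is given for these genes.

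For COPD model against control, the question was whether smoke and smoke extract altered the lung's cardiac muscle transcripts. By limma on log2(FPKM + 1) with Benjamini-Hochberg adjustment, 0 of the 8 genes passed an adjusted p under 0.05, beside 0.0765% of the genes tested, and 0 had an unadjusted p under 0.05, beside 6.59%. Groups did not overlap for 0 of the 8, beside 23.7% of genes not overlapping and higher in the COPD model and 0.314% lower. The median log2 change of the 8 was 0.13, beside 0.66 over all genes tested, and 1 of the 8, Actc1, lay above the median of all genes. Actc1 had a log2 change of 1.55 ± 0.83 (SE; adjusted p = 0.514, limma), and the other 7 lay between -0.26 for Sln and 0.39 for Nppa, with adjusted p from 0.569 to 0.962 by limma. The 2 light chains had log2 changes of 0.08 ± 0.87 for Myl7 and -0.05 ± 0.74 for Myl4 (SE), and Myh6 one of 0.05 ± 0.74. For Myl7, Myh6, Tnnt2 and Tnni3 the log2 change was above 0 while the mean FPKM was lower in the COPD model than in control, since control 2 weighs more in a mean of FPKM than in a mean of logs. Single control libraries turned these directions: the log2 change of Myl7 was 1.78 without control 2 and -1.01 without control 1, that of Myh6 1.51 and -0.74, and that of Tnni3 1.22 and -0.62. Without control 2 and without control 1 the median of all genes was 0.73 and 0.30.

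For BMSC-treated against COPD model, which shares the COPD model libraries with the comparison above, the question was what the cells altered in diseased lung. Of the 8 genes 0 passed by limma with Benjamini-Hochberg adjustment, beside 0.127% of genes tested, and Nppa alone had an unadjusted p under 0.05, beside 11.1%. Groups did not overlap for 0 of the 8, beside 0.272% of genes higher and 31% lower after BMSCs. The median log2 change of the 8 was 0.46, beside -0.75 over all genes tested, and 7 of the 8 lay above the median of all genes. Nppa had a log2 change of 1.03 ± 0.46 (SE; adjusted p = 0.375, limma), Myl7 one of 1.03 ± 0.87 (adjusted p = 0.41, limma) and Sln one of 0.96 ± 0.70 (adjusted p = 0.382, limma). Myl4 and Myh6 had 0.53 ± 0.74 and 0.38 ± 0.74 (SE), while Tnni3 and Tnnt2 had -0.12 ± 0.78 and -0.26 ± 0.71 (SE). Actc1 lay on the other side, at -1.50 ± 0.83 (SE; adjusted p = 0.375, limma). With 0.1 FPKM added in place of 1, the log2 change of Nppa was 2.81, a value that depends on what is added to its zeros. Tnni3 had a higher mean FPKM after BMSCs than in the COPD model, against the sign of its log2 change. Without BMSC-treated 1 the log2 change was 2.09 for Myl7, 2.29 for Sln and -0.32 for Actc1, and none of these passed.

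For BMSC-treated against control, 0 of the 8 genes passed by limma with Benjamini-Hochberg adjustment, as did 0 of all genes tested (0%), and Nppa alone had an unadjusted p under 0.05, beside 0.408% of genes. Groups did not overlap for 0 of the 8, beside 0.178% of genes higher and 0.382% lower. The median log2 change was 0.46 for the 8 and -0.10 for all genes tested, and all 8 lay above the median of all genes. Nppa had a log2 change of 1.42 ± 0.46 (SE; adjusted p = 0.9999, limma), Myl7 one of 1.10 ± 0.87 (SE) and Sln one of 0.69 ± 0.70 (SE). With 0.1 FPKM added in place of 1, Nppa had 3.33. The other 5 lay between -0.07 for Tnnt2 and 0.49 for Myl4. Myl7, Myh6, Myl4 and Tnni3 had log2 changes above 0 but lower mean FPKM after BMSCs than in control, as for Myl7 with 97.1 against 113 FPKM. Control 2 decided much of this: without it the median of the 8 was 1.69, beside -0.02 over all genes tested. Without control 1 the median of the 8 was -0.26, still above the -0.45 over all genes. Tnnt2, Actc1 and Tnni3 then lay below the median of all genes, at -0.83, -0.97 and -0.75.

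**Figure D2:**
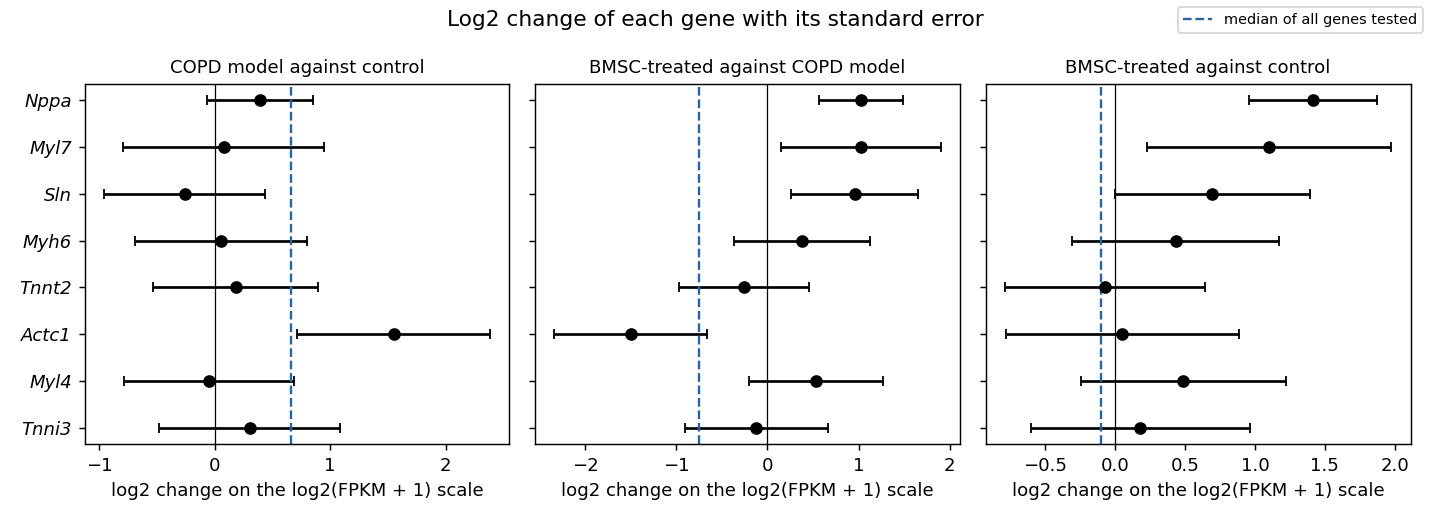
Log2 change of each of the 8 genes in the 3 comparisons, with standard errors. The horizontal axes are on the log2(FPKM + 1) scale with the first-named group minus the second, and the dashed line is the median of all 11765 genes tested. Actc1 lies on the opposite side of the dashed line from the other 7 genes in the COPD model comparison with control (1.55 against a median of 0.66) and in that of BMSC-treated with COPD model libraries (-1.50 against -0.75).

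Part of these differences moved with the scale. With every library rescaled to the same FPKM total after Scgb1a1 and mitochondrial transcripts were set aside, the median of all genes was 0.14, -0.15 and -0.01 in the 3 comparisons in the order above, and the median of the 8 genes was -0.45, 1.13 and 0.54. On this scale Myl7 had 47.0, 130.2 and 129 rescaled FPKM in BMSC-treated libraries, against 13.4, 33.5 and 28.4 in COPD model libraries, and these groups no longer overlapped. Myl4 had 7.13, 14.8 and 15.0 rescaled FPKM in BMSC-treated against 2.87, 6.40 and 3.94 in COPD model libraries, again without overlap. That made 2 of the 8 genes not overlapping and higher, beside 6.61% of the 11576 genes tested on this scale, and 0 of the 8 lower, beside 14%. The log2 changes were 1.94 ± 1.12 for Myl7 (SE; adjusted p = 0.615, limma) and 1.29 ± 0.79 for Myl4 (SE; adjusted p = 0.619, limma), and 0 of the 8 passed, as did 0% of all genes. For BMSC-treated against control, Nppa had 2.94, 3.22 and 4.54 rescaled FPKM against 0, 1.61 and 0, without overlap, beside 2.89% of genes higher and 2.69% lower, and its log2 change was 1.72 ± 0.60 (SE; adjusted p = 0.9995, limma). For COPD model against control, 0 of the 8 were free of overlap, beside 6.94% of genes higher and 4.08% lower.

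Plain ratios between genes of one library do not depend on its scale. With 0.1 FPKM added, as below, they depend on it to some degree, most for values near 0 such as those of Nppa and Sln. These ratios divided the 8 genes into those that kept step and those that did not. Likeness was measured as the SD over the 9 libraries of the log2 ratio of 2 genes, each with 0.1 FPKM added, as a description of these libraries. Among the 28 pairs the SD was smallest for Tnnt2 with Tnni3, at 0.45, followed by Myl7 with Myh6 at 0.52, Myl7 with Myl4 at 0.52 and Myh6 with Myl4 at 0.62. Myl7 stood at 4.88 to 14.6 times the FPKM of Myh6 and at 3.30 to 9.58 times that of Myl4 in the 9 libraries, ranges of about 3-fold, while Myl7 itself ranged from 5.81 to 322.5 FPKM. Myl7 over Tnni3 varied more, from 0.944 in control 3 to 6.83 in control 2. Nppa, with its values listed at 0, kept step with no other member, with an SD of at least 1.84 in each of its 7 pairs. Actc1 had an SD of 1.01 with Tnnt2 and 1.10 with Tnni3, and of 1.61 to 3.04 with the other 5.

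**Figure D3:**
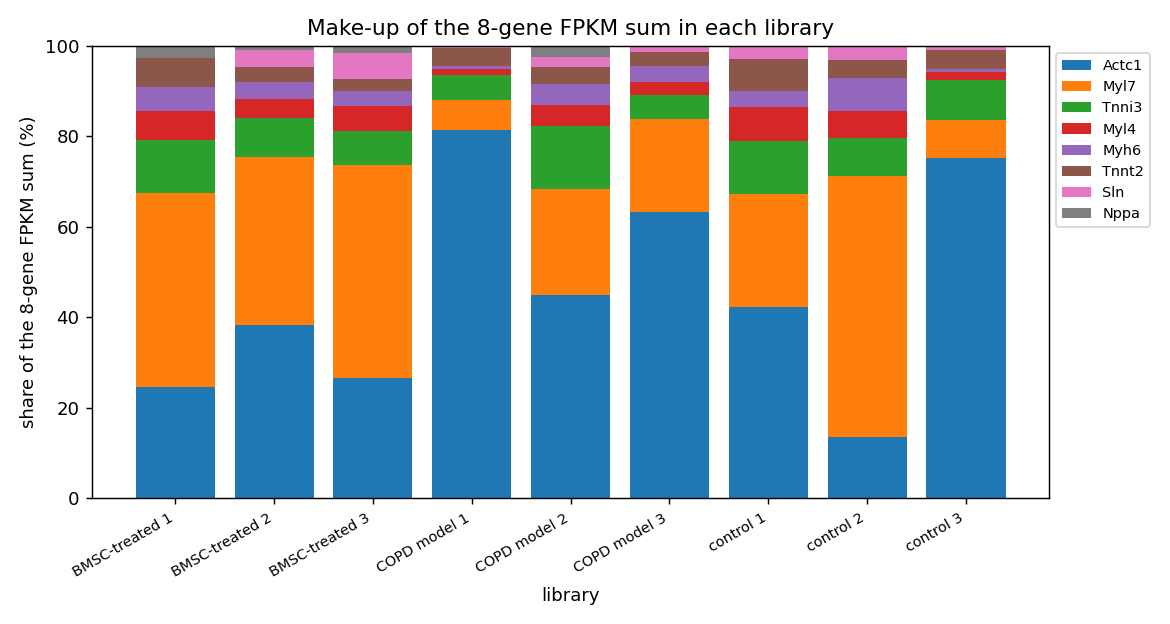
Make-up of the summed FPKM of the 8 genes in each of the 9 libraries, as percent of the sum. Actc1 makes up 81.4% in COPD model 1 and 13.5% in control 2, where Myl7 makes up 57.7%.

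The balance of actin and atrial light chain therefore differed from library to library. Of the summed FPKM of the 8 genes, Actc1 made up 24.6%, 38.2% and 26.5% in BMSC-treated libraries, 81.4%, 45.02% and 63.2% in COPD model libraries and 42.2%, 13.5% and 75.2% in control libraries. Myl7 made up 43.0%, 37.1% and 47.1% in BMSC-treated libraries, 6.61%, 23.5% and 20.7% in COPD model libraries and 24.9%, 57.7% and 8.42% in control libraries. The BMSC-treated libraries did not overlap the COPD model libraries in either share, being higher for Myl7 and lower for Actc1, and the control libraries had values on both sides of the BMSC-treated ones. These shares were examined after the values were seen and were not tested.

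Actc1 was also set beside a list of smooth muscle genes. The 9 smooth muscle genes of a chosen list summed to 44.1 to 397 FPKM in BMSC-treated libraries, 368 to 996 FPKM in COPD model libraries and 67.6 to 505 FPKM in control libraries, and all 9 were tested. Acta2, smooth muscle alpha actin, had 14.9, 149.5 and 130.7 FPKM in BMSC-treated, 415, 146.8 and 232 FPKM in COPD model and 39.4, 19.7 and 216.5 FPKM in control libraries. Tagln, transgelin, had 17.9, 122 and 115 FPKM in BMSC-treated, 304.9, 112 and 168 FPKM in COPD model and 38.5, 25.7 and 147.6 FPKM in control libraries, and Actg2, gamma smooth muscle actin, was highest in COPD model 1 at 79.8 FPKM. Control 2, with the most Myl7, thus had the second least Acta2, and no smooth muscle gene of the list had its highest value there. Over Acta2, Actc1 stood at 0.250 to 0.783 in the other 8 libraries and at 3.83 in control 2, while Myl7 stood at 0.0423 to 1.25 in the other 8 and at 16.35 in control 2. The SD of the log2 ratio of Actc1 to the 9 smooth muscle genes had a median of 0.93, and 0.603 without control 2, a library left out after its values were seen. For Myl7 these medians were 2.41 and 1.77, for Myh6 2.42 and 1.80, for Tnni3 1.59 and 1.04, and for Tnnt2 1.46 and 0.77. With the other 7 of the 8 genes instead, the median without control 2 was 1.66 for Actc1, 1.17 for Tnnt2 and 1.005 for Tnni3, so that Tnnt2 too lay nearer the smooth muscle genes there and Tnni3 was about as near to both. Over all 9 libraries the genes nearest to Actc1 were not smooth muscle genes: Tnfrsf4 had an SD of 0.27, Cryaa 0.32, Nthl1 0.33, Casq1, a calcium-binding protein of skeletal muscle, 0.34 and Dgkq 0.39. Their means were 0.834, 1.15, 3.57, 0.77 and 1.10 FPKM, low levels at which the 0.1 FPKM added weighs more. The smooth muscle genes had an SD of 0.77 to 1.31 over all 9 libraries and of 0.218 to 0.788 without control 2. Whether smooth muscle content accounts for the values of Actc1 was not tested.

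**Figure D4:**
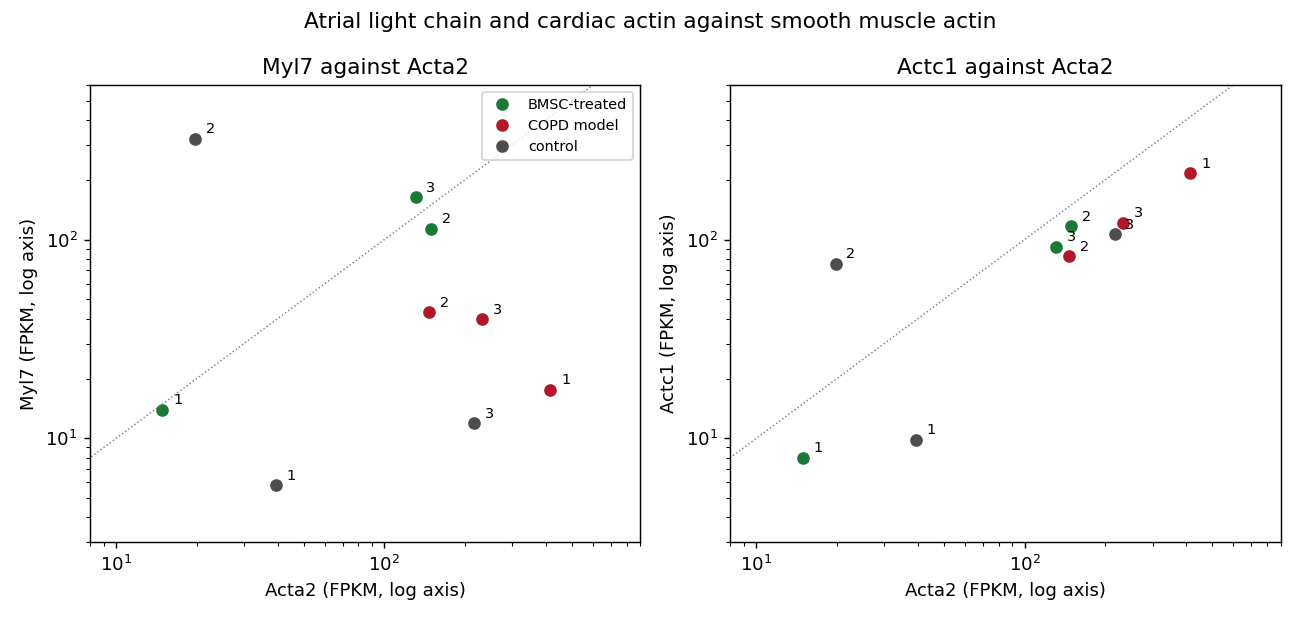
FPKM of Myl7 (left) and Actc1 (right) against FPKM of Acta2, smooth muscle alpha actin, on log axes in the 9 libraries. Numbers are replicates, colours are BMSC-treated, COPD model and control groups, and the dotted line marks equal values. Actc1 over Acta2 lies between 0.250 and 0.783 outside control 2, and Myl7 over Acta2 between 0.0423 and 1.25.

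The ratio of Myl7 to Acta2 was 0.938, 0.760 and 1.25 in BMSC-treated libraries, against 0.0423, 0.293 and 0.171 in COPD model libraries, and 0.148, 16.35 and 0.055 in control libraries. BMSC-treated libraries were above all COPD model libraries and between the control libraries. For the 7 genes other than Actc1, summed, over the smooth muscle list, summed, the ratio was 0.476 to 0.735 in BMSC-treated libraries, 0.0495 to 0.275 in COPD model libraries and 0.0695 to 7.16 in control libraries, the same order. Neither ratio was tested, and how many other gene ratios would separate these groups was not counted. Acta2 itself had a mean of 98.4 FPKM after BMSCs and 264.7 FPKM in the COPD model, and 31% of all genes tested were lower after BMSCs without overlap. In the COPD model the 9 smooth muscle genes had a median log2 change of 1.74 against control, beside 0.66 for all genes tested, with 0 passing and 6 at an unadjusted p under 0.05, beside 6.59% of all genes (limma). For BMSC-treated against COPD model the median was -1.44, beside -0.75, with 0 passing and 3 at an unadjusted p under 0.05, beside 11.1% (limma).

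Other heart muscle genes, in 5 lists chosen by function, were divided. Of their 50 measured genes 26 had the highest value in control 2. Of the 45 tested, 20 were among the 100 genes, out of 11757 ranked, most like the mean of the 8. These were 8 sarcomere, 7 energy supply, 3 calcium handling and 2 atrium-enriched genes, and 0 transcription factors. Of 20 further sarcomere genes 15 were measured and tested, and 9 of these had their highest value in control 2. The 3 most abundant by the mean of all libraries were Des, Cryab and Tpm1, which smooth or other muscle also makes. Tpm1, a tropomyosin, had 7.42, 25.4 and 33.5 FPKM in BMSC-treated, 26.9, 24.6 and 31.0 FPKM in COPD model and 10.5, 44.5 and 20.02 FPKM in control libraries. Des, the intermediate filament of all muscle, was highest in COPD model 1 at 141 FPKM and stood at 16.1 FPKM in control 2, and Cryab, a small heat shock protein of muscle and lens, ranged from 19.4 to 50.6 FPKM. Of 14 genes of cardiac energy supply 12 were measured and 11 tested, and 9 of the 12 had their highest value in control 2. Cox6a2, a muscle subunit of cytochrome c oxidase, had 1.39, 20.5 and 29.6 FPKM in BMSC-treated, 3.53, 8.67 and 15.6 FPKM in COPD model and 3.84, 56.3 and 3.50 FPKM in control libraries. Mb, the oxygen-binding myoglobin, had 4.56, 25.5 and 34.1 FPKM in BMSC-treated, 3.99, 13.2 and 8.41 FPKM in COPD model and 0.349, 46.7 and 3.89 FPKM in control libraries. Fabp3, a fatty acid carrier of heart muscle, had its highest value, 32.0 FPKM, in control 2 too.

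Calcium handling and excitation genes were mixed. Of 16 listed, 12 were measured and 10 tested, and 6 had their highest value in control 2. Atp2a2, the calcium pump that sarcolipin restrains and that other lung cells also make, ranged from 1.85 to 30.7 FPKM after BMSCs, 21.2 to 29.9 FPKM in the COPD model and 2.09 to 31.0 FPKM in control. Gja1, a gap junction connexin, and Jph2, a junctophilin, peaked in COPD model libraries, at 5.11 and 4.32 FPKM. Of 11 further genes enriched in atrium, 6 were measured and 5 tested, led by Stard10, Pam and Dkk3, which are also made outside muscle and had means of 19.7, 8.24 and 7.49 FPKM. Of 13 cardiac transcription factors and cofactors 5 were measured and 4 tested, and 0 were highest in control 2. The leading 3, Nr2f2, Gata6 and Tbx5, have other roles in lung vessels and mesenchyme and had means of 9.02, 5.46 and 4.51 FPKM. Over all 5 lists 0 genes passed in any of the 3 comparisons by limma with Benjamini-Hochberg adjustment. Their median log2 changes for COPD model against control were 0.09 for sarcomere, 0.20 for energy supply, 0.62 for calcium handling, 0.80 for atrium-enriched genes and 0.78 for transcription factors, beside 0.66 for all genes tested. For BMSC-treated against COPD model they were -0.10, 0.45, -0.33, -0.54 and -0.65, beside -0.75. For BMSC-treated against control they were -0.10, 0.35, 0.12, 0.11 and 0.15, beside -0.10.

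Markers of other striated muscle bore on the name given to these genes. Of 6 ventricular genes 4 were measured and 1, Myh7, was tested. Myl2, the ventricular regulatory light chain, was listed at 0 in 7 of 9 libraries and reached 1.56 FPKM in control 1, where Myl7 had 5.81 FPKM. Hey2 and Kcnip2, enriched in ventricle, reached 1.38 and 0.734 FPKM. Of 17 skeletal muscle genes 5 were measured and 4 tested, and their sum was 1.31 to 10.1 FPKM in BMSC-treated, 5.90 to 21.4 FPKM in COPD model and 1.08 to 9.03 FPKM in control libraries. Tnnt3, fast skeletal troponin T, led them with 13.8 FPKM in COPD model 1, against 0.216 FPKM in control 2, and was followed by Tnni2 and Tnnt1, with means of 1.33 and 0.854 FPKM. Myl7 was thus above Myl2 as listed in all 9 libraries on the FPKM scale, and Myl4 was too, though in control 1 only by 1.76 against 1.56 FPKM. In 7 of the 9 the listed Myl2 value was 0, which may also be a failed estimate. The remaining 2 ventricular and 12 skeletal muscle genes listed were absent from the expression table. That table held no gene with its largest group mean under 0.5003 FPKM, and the levels of absent genes are not known. Of 11 genes of vein, mesothelium and fat, 9 were measured and 7 tested. Their sum was 8.32 to 68.5 FPKM in BMSC-treated, 16.9 to 75.8 FPKM in COPD model and 7.25 to 30.1 FPKM in control libraries. The leading ones, Msln and Upk3b of mesothelium, were highest in BMSC-treated 3 and COPD model 3, at 24.2 and 22.4 FPKM, and Ephb4 of venous endothelium in COPD model 3, at 15.4 FPKM. In these 3 lists and the smooth muscle list 0 genes passed in any of the 3 comparisons. Their median log2 changes for COPD model against control were 0.21 for the ventricular gene tested, 0.55 for skeletal muscle and 0.38 for vein, mesothelium and fat.

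The genes most like the 8 were sought among all 11757 other genes tested, by the SD over the 9 libraries of the log2 ratio of a gene to the mean of the 8, with 0.1 FPKM added. That mean includes Nppa, whose 4 values listed at 0 enter as 0.1 FPKM and lower it in those libraries. The median SD over these genes was 1.36. The 12 closest had an SD of 0.45 to 0.75, and 9 of them belonged to the heart muscle lists: Pgam2, a muscle phosphoglycerate mutase (0.52), Mybpc3, cardiac myosin-binding protein C (0.52), Pln, phospholamban, which restrains the same calcium pump as sarcolipin (0.57), Fabp3 (0.61), Myoz2 and Tcap of the Z-disc (0.66 each), Tnnc1, the calcium-binding troponin C (0.68), Cox6a2 (0.74) and Ckm, muscle creatine kinase (0.75). The other 3 were Zdhhc24 (0.45), a palmitoyltransferase family gene with a mean of 0.967 FPKM, Ppp1r1b (0.62), a phosphatase inhibitor, and Brpf3 (0.74), a bromodomain gene. Pgam2 had 1.78, 6.04 and 8.24 FPKM in BMSC-treated, 2.39, 4.64 and 2.99 FPKM in COPD model and 1.03, 18.3 and 1.25 FPKM in control libraries. Since likeness was taken over the same 9 libraries, that 10 of the 12 peak in control 2 follows from how they were found. Among the 8 themselves, each set against a mean that contains it, Myl4 lay closest with an SD of 0.34 and Tnni3 next with 0.51. Actc1 and Nppa, at 1.43 and 1.85, were farther from that mean than the median gene.

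**Figure D5:**
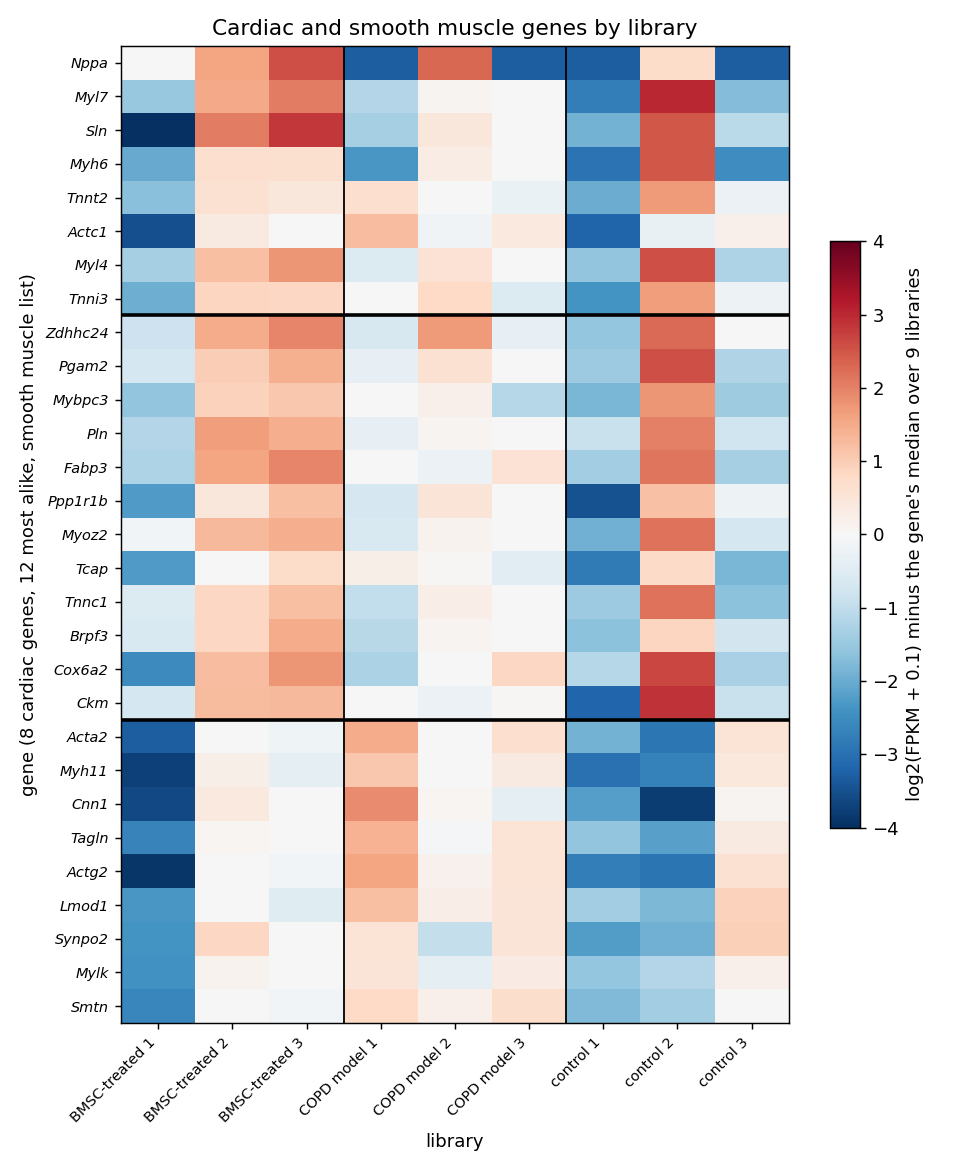
Level of the 8 cardiac genes (top block), the 12 genes most like them (middle) and the smooth muscle list (bottom) in the 9 libraries. Colour is log2(FPKM + 0.1) minus the gene's median over the 9 libraries, with the scale ending at 4 log2 units in either direction. Control 2 is red in most rows of the upper blocks and blue in all 9 smooth muscle rows, and Actc1 is near its median there.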

How the data were processed

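Messenger RNA of 9 lung libraries, 3 in each of 3 groups, was analysed, with groups and replicate numbers taken from the sample titles. Per the labels' protocols, 1.5 µg of total RNA was enriched with oligo dT and made into stranded libraries. The submitters' processing notes name mm10 and the tools StringTie, Bowtie, cutadapt and FastQC, without versions or roles. The authors deposited FPKM, a value per transcript length and library size. The largest group mean of a gene was at least 0.5003 FPKM in each of the 13384 genes. To look for whole-read steps, genes were counted that lay under 0.3 FPKM in both of 2 libraries and within 0.02 log2 of the commonest ratio. For control 1 over BMSC-treated 1 this held 82 of 892 genes, whole reads could not be recovered, and the depth is unknown. No libraries were identical, and the tsRNA tables were not used here.

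Genes at 1 FPKM or more in at least 3 libraries were tested on log2(FPKM + 1) by limma (version 3.58.1, R 4.3.3), using one fit of the 9 libraries and a trended prior variance, after the script was tested on simulated data. A gene passed at a Benjamini-Hochberg adjusted p below 0.05. Fold changes on this scale understate those of low genes. The 8 genes and the lists were chosen with earlier results of these data known. The rule for names took the 8 genes, the 3 most abundant of each list, any list gene that passed, and the 12 most alike. Myl2 and the 5 genes nearest to Actc1 were named after their values were seen. Deviations from group means, over genes tested, correlated between same-numbered BMSC-treated and control libraries at 0.632, 0.194 and 0.497. Differently numbered ones correlated at -0.578 to 0.309, the highest being BMSC-treated 3 with control 2. The value of 0.632 joins BMSC-treated 1 and control 1, the libraries with the highest mitochondrial shares. Whether the numbers mark pairs is not known, and BMSC-treated libraries were also compared with control by number as an alternative. With the replicate number as a block, 0 of the 8 genes passed there. Tables and plots used Python 3.11.15, pandas 2.3.3, numpy 2.4.6 and matplotlib 3.10.9.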

Additional observations from a re-analysis of the deposited data

How the results depend on the processing

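Under the 8 planned kinds of alternative 0 of the 8 genes passed in any comparison by limma. Leaving out 1 library at a time, the median log2 change of the 8 ranged from -0.66 to 1.17 for COPD model against control, 0.01 to 1.22 for BMSC-treated against COPD model and -0.26 to 1.69 for BMSC-treated against control. The median of all genes moved too. For COPD model against control it was 0.30 without control 1 and 0.73 without control 2. For COPD model against control the median of the 8 was 0.13 and turned to -0.45 with rescaled FPKM, -0.56 with median-ratio scaling and -0.66 without control 1 and BMSC-treated 1. The median of all genes fell as well, from 0.66 to 0.14, 0.05 and 0.30, and the median of the 8 lay below it in each setting. Actc1 lay above the median of all genes in each, at 0.81, 0.69 and 0.53. Nppa did so with both scalings, at 0.28 and 0.22. With no depth known, no floor can be given for values listed at 0. Without control 1 and BMSC-treated 1 the medians were -0.66, 1.22 and 0.50 in this order of comparisons, beside 0.30, -0.31 and -0.02 over all genes. With control 2 left out and FPKM rescaled, chosen after seeing the data, the medians of the 8 were 0.60 for COPD model and 1.57 for BMSC-treated libraries against control. Those of all genes were 0.13 and -0.01.

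Calls over all genes tested were 9, 15 and 0 in the same order. For COPD model against control there were 0 with a pseudocount of 0.1, 0 with rescaled FPKM, 0 with median-ratio scaling, 0 with control 2 left out and rescaled, 1 with no filter, 2 with the groups compared alone, 3 without control 1 and BMSC-treated 1, and 17 with the replicate block. For BMSC-treated against COPD model there were 0 with a pseudocount of 0.1, 0 with either scaling, 6 with no filter and 34 with the replicate block. Whether replicate numbers mark pairs is not known in any comparison. For BMSC-treated against control there were 6 without control 1 and BMSC-treated 1, and 0 with the replicate block. Leaving out 1 library gave 1 to 47, 0 to 35 and 0 to 2 calls.

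Directions of genes that did not pass turned as follows, and the cause was not tested. For COPD model against control, Myl4 had 0.0866 with a pseudocount of 0.1. Myl7, Myh6, Tnnt2 and Tnni3 had -0.64, -0.47, -0.42 and -0.36 with rescaled FPKM, -0.76, -0.60, -0.52 and -0.47 with median-ratio scaling, and -1.01, -0.74, -0.57 and -0.62 without control 1 and BMSC-treated 1. With control 2 left out and rescaled, Sln had 0.26 and Myl4 0.42. For BMSC-treated against COPD model, Tnnt2 and Tnni3 had 0.52 and 0.72 with rescaled FPKM, 0.62 and 0.84 with median-ratio scaling, and 0.36 and 0.72 without control 1 and BMSC-treated 1. For BMSC-treated against control, Tnnt2 had 0.0948 with rescaled FPKM, 0.10 with median-ratio scaling and 0.83 with control 2 left out and rescaled.

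Leaving out 1 library, log2 changes for COPD model against control ranged from -0.45 to 0.84 for Nppa, -1.01 to 1.78 for Myl7, -0.88 to 0.77 for Sln, -0.74 to 1.51 for Myh6, -0.57 to 1.01 for Tnnt2, -0.70 to 1.13 for Myl4 and -0.62 to 1.22 for Tnni3, and stayed above 0 for Actc1, from 0.53 to 2.18. For BMSC-treated against COPD model they ranged from -0.27 to 1.11 for Myh6, -0.59 to 0.36 for Tnnt2, -0.0007 to 1.34 for Myl4 and -0.55 to 0.72 for Tnni3, and did not turn for the other 4. For BMSC-treated against control they ranged from -0.15 to 2.02 for Sln, -0.36 to 1.89 for Myh6, -0.83 to 0.75 for Tnnt2, -0.97 to 1.23 for Actc1, -0.16 to 1.66 for Myl4 and -0.75 to 1.10 for Tnni3, and stayed above 0 for Nppa and Myl7.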
